A study of Mus musculus with 6 samples.

Results

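The proteasome subunit genes are the protein-coding genes of the mouse annotation whose symbol is Psma, Psmb, Psmc, Psmd, Psme, Psmf or Psmg followed by a number. This rule found 48 of the 21751 protein-coding genes of GENCODE M39. They were divided by role into 14 genes of the constitutive core particle (7 alpha and 7 beta subunits), 17 of the regulatory particle (6 ATPases of its base and 11 other subunits), 5 tissue-restricted core subunits, 7 assembly factors, and 5 activators and inhibitors. The tissue-restricted subunits are Psmb8, Psmb9 and Psmb10 of the immunoproteasome, Psmb11 of the thymus and Psma8 of the testis.

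The data are CUT&RUN interval lists from prospermatogonia, the germ cells of the fetal testis, taken at E16.5 (the embryonic day). In CUT&RUN an antibody tethers a nuclease to its target, and the DNA cut loose is sequenced. Per the labels the cells were male, C57BL/6 in strain and wild type for Taf4b. They were sorted alive for the GFP signal of an Oct4-EGFP transgene, which all groups carried. The labels' protocols name a mixed B6;129S4 stock for that transgene. The labels do not say how many embryos were pooled or whether replicates came from separate animals, so the spread between replicates may be technical. Of 6 samples in 3 antibody groups of 2, the TAF4b and H3K4me3 groups were used, and the IgG control libraries were not analysed here. No antibody background could therefore be set beside the values below.

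The proteasome is the cell's main machine for degrading proteins tagged with ubiquitin. Its core is a stack of rings: outer rings of alpha subunits gate the entrance, and inner rings of beta subunits hold the protease sites. The regulatory particle binds ubiquitin chains, removes them, and unfolds the substrate with a ring of ATPases. Immune cells and cells exposed to interferon exchange the 3 catalytic beta subunits for Psmb8, Psmb9 and Psmb10, and germ cells in meiosis replace the alpha subunit Psma7 with Psma8. TAF4b is a variant subunit of TFIID, the general factor that recognises core promoters, and is enriched in gonads. H3K4me3 is a histone mark of active or poised promoters.

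The TAF4b lists held 7861 peaks in replicate 1 and 848 in replicate 2, and the H3K4me3 lists held 64891 regions and 1730 regions. Each peak or region carries the authors' score, whose scaling is not given in the sources used here, so scores were compared only within a list. Read totals were not used, and the depth is unknown. A gene missing from a list therefore has no interval past an unstated threshold, which does not show that the protein or mark is absent. Among marker genes, TAF4b replicate 1 had a promoter peak (22.7% of all protein-coding genes) at 4 of 10 germ cell genes (Ddx4, Dazl, Dnd1 and Mael) and at 0 of 18 genes of Sertoli, interstitial, blood and endothelial cells, or at 1 of the 18 (the interstitial gene Nr2f2) within 1000 bp. TAF4b replicate 2 had none at either. H3K4me3 replicate 1 had a promoter region (44% of all genes) at 5 of 10 germ cell genes, 5 of 6 Sertoli genes, 2 of 6 interstitial genes and 0 of 2 endothelial genes. Within 1000 bp (72% of all genes) these counts were 9 of 10, 5 of 6, 2 of 6 and 1 of 2. The part of other cells in the H3K4me3 calls below was not tested.

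TAF4b replicate 1 had promoter peaks at constitutive core, immunoproteasome, regulatory particle, assembly and activator genes of the proteasome, but at neither the testis nor the thymus subunit. A promoter peak is one that the deposited annotation classes as promoter and whose named transcript belongs to the gene. By this call 27 of 48 members (56.2%, 95% Wilson interval 42.3 to 69.3%, counting error only) had a TAF4b peak, beside 22.7% of all protein-coding genes. Counting instead any peak with a base within 1000 bp of an annotated start site of the gene gave 32 of 48 members (66.7%) beside 29% of all genes. In TAF4b replicate 2 the call was met by 1 member, the catalytic core subunit Psmb6, or 2.08% (0.369 to 10.9%) beside 3.14% of all genes. Calls within 1000 bp gave the same 1 member beside 4.17%. The excess over the background was therefore seen in replicate 1 and not in replicate 2, and without replicate 1 the count fell from 27 to 1.

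The lists also differ in length. Cut to its 848 highest-scoring peaks (scores of 29.3 or more), TAF4b replicate 1 kept 4 members, namely Psma3, Psmb6, Psmc4 and Psmd4. That is 8.33% beside 3.35% of all genes. Psmb6 was the only one of these 4 in replicate 2.

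**Figure D1:**
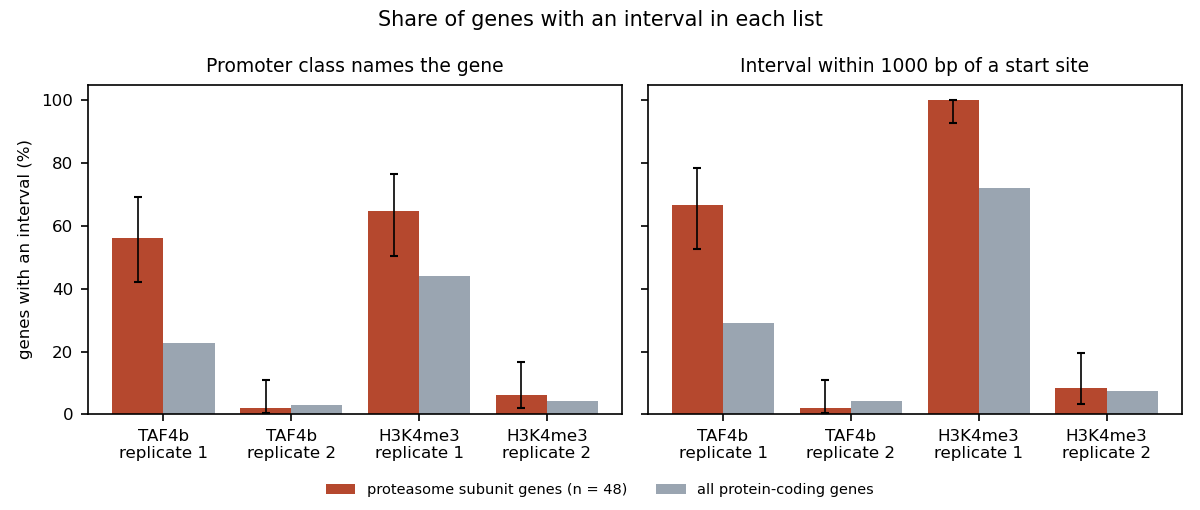
Share of genes with an interval in each of the 4 lists (percent), for the 48 proteasome subunit genes and for all protein-coding genes, by the deposited promoter class (left) and within 1000 bp of an annotated start site (right). Error bars are 95% Wilson intervals and cover counting error only. The members stand above all genes in both replicate 1 lists (56.2% beside 22.7% for TAF4b by class), while in the replicate 2 lists the bars lie within 2 to 9%.

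In the full H3K4me3 replicate 1 list, all 48 members had a region within 1000 bp, beside 72% of all genes, and at 44 of 48 a region covered the canonical start site (the start of the transcript that Ensembl selects for the gene), beside 56.2% of all genes. The 4 without cover were Psma7, Psmb10, Psmb11 and Psmg2. The deposited promoter class names fewer, 31 of 48 (64.6%) beside 44%. Of the 17 members it leaves out, 8 had a promoter-class region within 1000 bp that was named for another gene, and 9 had a region of another class. In replicate 2 the class named 3 members (6.25% beside 4.14%), the alpha subunit Psma7, the lid subunit Psmd6 and the core assembly chaperone Psmg2. Calls within 1000 bp added the lid subunit Psmd11, for 4 members beside 7.31%. Cut to its 1730 highest-scoring regions, the length of replicate 2, H3K4me3 replicate 1 named 3 members, Psmb3, Psmb8 and Psme2 (6.25% beside 3.42% of all genes), none of them called in replicate 2.

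Since genes with H3K4me3 could all be more likely to have a TAF4b peak, the TAF4b share was also taken among marked genes. Of 31 members with an H3K4me3 replicate 1 promoter region, 18 (58.1%) had a TAF4b replicate 1 promoter peak, beside 37.9% of all genes with such a region. Within 1000 bp the shares were 66.7% and 39.5%. The difference between members and background was 33.5 percentage points over all genes, 20.2 points over genes marked by class and 27.2 points over genes marked within 1000 bp. Each rests on TAF4b replicate 1.

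Psmb6 was the one member with a TAF4b promoter peak in both replicates. It encodes the constitutive beta subunit with caspase-like activity, which the immunoproteasome subunit Psmb9 replaces. Its replicate 1 peak lay upstream and across the canonical start site at chr11 position 70416183, with a score of 31.8, rank 573 of 7861. Its replicate 2 peak contained the whole of the first and scored 56.7, rank 456 of 848, so Psmb6 was near the middle of that list. The peaks are shown because they are the only pair of replicate peaks at a member; capitals mark the antioxidant response element TGACNNNGC, which begins at position -9 from the start site.
Psmb6 TAF4b replicate 1 (GRCm39 chr11:70416059-70416201, plus strand): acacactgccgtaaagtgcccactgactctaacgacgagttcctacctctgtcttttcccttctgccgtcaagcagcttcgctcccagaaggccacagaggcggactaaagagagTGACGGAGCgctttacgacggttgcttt
Psmb6 TAF4b replicate 2 (GRCm39 chr11:70416019-70416207, plus strand): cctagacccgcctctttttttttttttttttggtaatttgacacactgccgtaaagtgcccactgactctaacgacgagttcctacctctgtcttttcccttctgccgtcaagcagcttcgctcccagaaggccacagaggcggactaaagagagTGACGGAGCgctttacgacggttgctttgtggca

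Among peaks that the promoter class names for a member, the highest TAF4b replicate 1 scores belonged to Psmd4, a ubiquitin receptor of the regulatory particle (36.2, above 94.8% of promoter peaks at protein-coding genes), then Psmb6 (31.8), the base ATPase Psmc4 (30.3), and the alpha subunits Psma3 (29.3) and Psma1 (25.3). Psmd4, Psmc4 and Psma1 are printed as the high-scoring peaks that stay close to the start site, from upstream into at most the first 50 bases of the transcript, on the strand of the gene. Capitals mark a GC box (GGGCGG), the string CCAAT or a YY1 core (AAGATGG) on either strand, so that their reverse complements are in capitals as well. The Psmd4 peak holds 3 CCAAT matches and no GC box, the Psmc4 peak holds 2 GC boxes and 1 YY1 core, and the Psma1 peak holds 2 of each of the GC and CCAAT boxes.
Psmd4 TAF4b replicate 1 (GRCm39 chr3:94949888-94950030, minus strand): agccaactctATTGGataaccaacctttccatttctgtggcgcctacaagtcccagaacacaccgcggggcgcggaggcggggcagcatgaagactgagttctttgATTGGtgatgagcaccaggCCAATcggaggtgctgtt
Psmc4 TAF4b replicate 1 (GRCm39 chr7:27749487-27749629, minus strand): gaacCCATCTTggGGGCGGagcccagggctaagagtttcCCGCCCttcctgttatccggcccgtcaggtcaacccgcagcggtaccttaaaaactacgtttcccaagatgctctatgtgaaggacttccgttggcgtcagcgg
Psma1 TAF4b replicate 1 (GRCm39 chr7:113875342-113875484, minus strand): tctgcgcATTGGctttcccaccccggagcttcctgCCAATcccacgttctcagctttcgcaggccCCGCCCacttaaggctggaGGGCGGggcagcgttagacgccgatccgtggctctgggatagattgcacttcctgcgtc

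Scores of the 27 member peaks in TAF4b replicate 1 ran from 8.44 to 36.2 with a median of 17.4. The median over all promoter peaks of protein-coding genes was also 17.4 (quartiles 12.4 and 24.3). Members were thus called more often than other genes in this list but their median score was not higher once called. The constitutive core peaks scored 13.9 to 31.8 (n = 8) and the regulatory particle peaks 8.44 to 36.2 (n = 10). Peaks of assembly factors scored 12.4 to 22.8 (n = 4), those of activators and the inhibitor 10.4 to 16.9 (n = 3), and those of the immunoproteasome 9.93 and 11.4 (n = 2). The immunoproteasome peaks named by class lie below the core and assembly ranges, but the peak of 13.9 at Psmb9, counted within 1000 bp, lies in both, and the other ranges overlap. These are peaks of 1 library, and the difference was not tested.

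**Figure D2:**
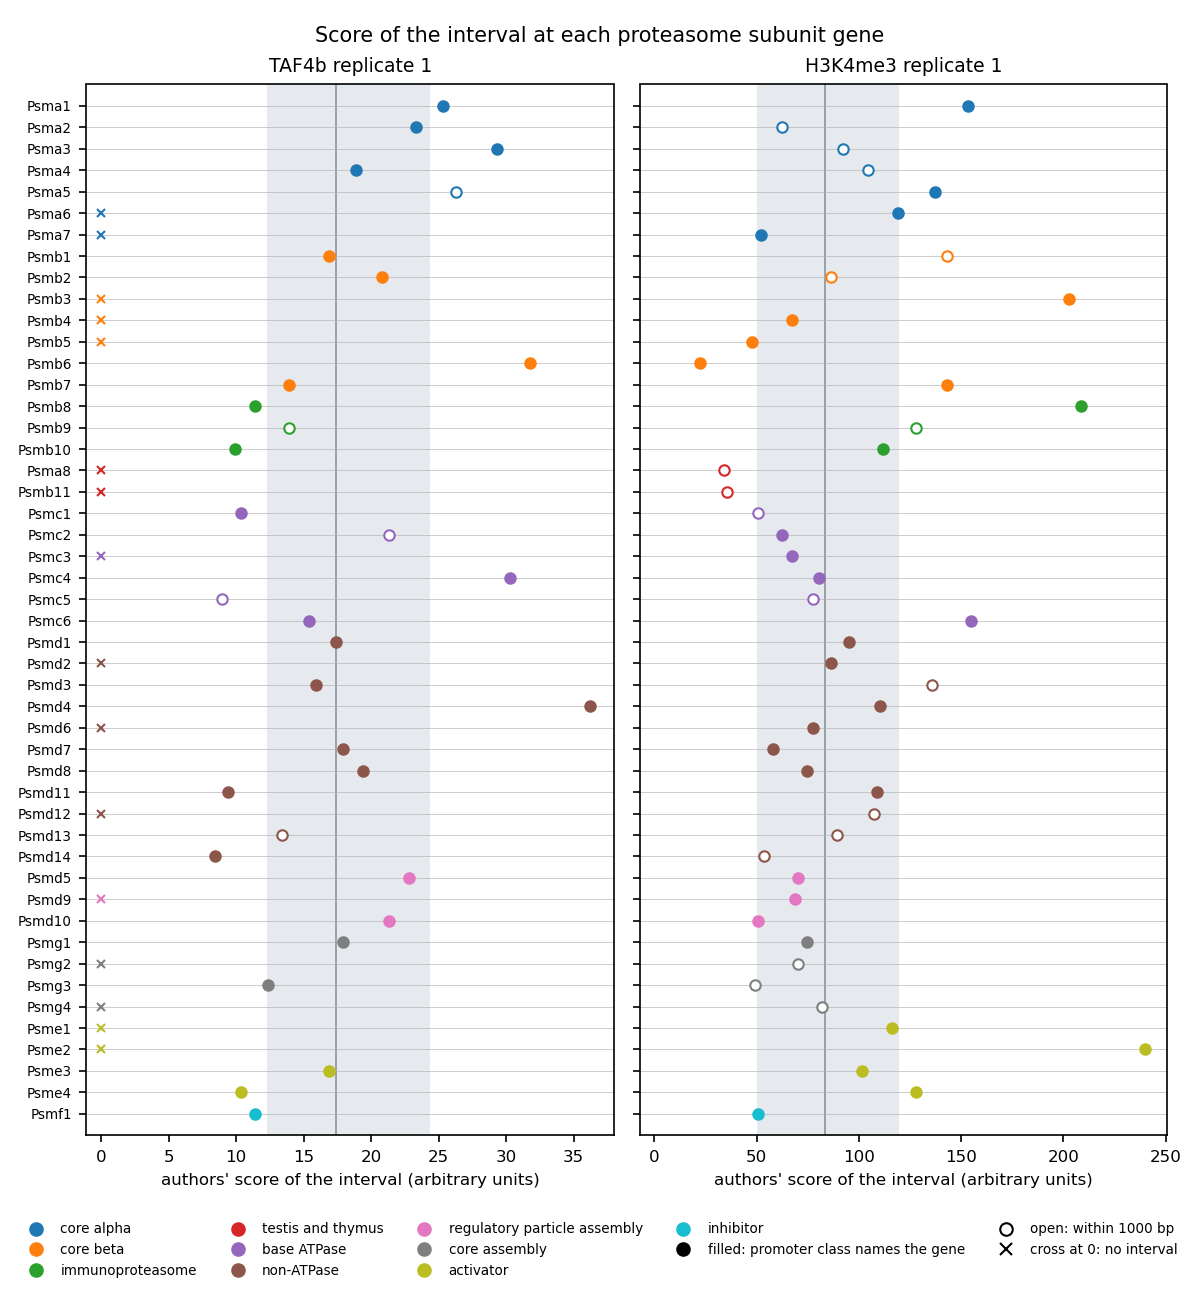
The authors' score of the interval at each of the 48 genes in TAF4b replicate 1 (left) and H3K4me3 replicate 1 (right), in the arbitrary units of each list. Filled points have a promoter-class interval that names the gene, open points have one within 1000 bp only, crosses at 0 have none, and the line and shading are the median and quartiles of promoter intervals at protein-coding genes. TAF4b points spread on both sides of the median of 17.4, and Psmb6 has the second highest TAF4b score and the lowest H3K4me3 score (22.4).

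In the constitutive core, TAF4b replicate 1 peaks were called at 8 of 14 genes by class (beside 22.7% of all genes) and 9 within 1000 bp (beside 29%). The alpha subunits Psma1, Psma2, Psma3 and Psma4 and the beta subunits Psmb1, Psmb2, Psmb6 and Psmb7 were called. Psma5 was added by coordinates, through a peak of 26.3 that the deposited file names for a long non-coding RNA, 1700010K24Rik, transcribed from the opposite strand. The alpha subunits Psma6 and Psma7 and the beta subunits Psmb3, Psmb4 and Psmb5 had no TAF4b peak within 1000 bp in either replicate. All 5 had an H3K4me3 region within 1000 bp in replicate 1, with scores of 119.2, 52.2, 202.7, 67.1 and 47.7 in that order. The Psma7 region missed the Psma7 start site and lay nearest the promoter of Ss18l1, so its score cannot be given to Psma7 alone. Psmb3 therefore had one of the highest H3K4me3 scores of the family and no TAF4b call.

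The 3 catalytic beta subunits of the constitutive core differed in their TAF4b calls. Psmb6 was called in both replicates, and Psmb7, with trypsin-like activity, in replicate 1 only, at a score of 13.9. Psmb5, with chymotrypsin-like activity, was called in neither. The subunits that replace them in the immunoproteasome did not follow the same order. Psmb8, which replaces Psmb5, had a replicate 1 peak of 11.4 at chr17:34416645-34416787, over the start site. Psmb10, which replaces Psmb7, had one of 9.93. Psmb9, which replaces Psmb6, had no promoter peak named for it, but a peak of 13.9 at chr17:34406299-34406441 lay within 1000 bp and was classed as the promoter of Tap1, an antigen peptide transporter gene, while the nearest promoter listed for it was that of Psmb9. The Tap1 start site lies 363 bp inside the Psmb9 transcript on the opposite strand, so a peak there cannot be given to 1 of these genes. None of the immunoproteasome genes was called in replicate 2.

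H3K4me3 replicate 1 scores of the immunoproteasome genes were 208.7 for Psmb8 (2139 bp between the ends), 128.2 for Psmb9 (1443 bp) and 111.8 for Psmb10 (1421 bp). Their constitutive counterparts scored 47.7 for Psmb5 (673 bp), 22.4 for Psmb6 (628 bp) and 143.1 for Psmb7 (1848 bp). In the pairs Psmb8 with Psmb5 and Psmb9 with Psmb6 the immunoproteasome gene had the higher score and the wider region, and in the pair Psmb10 with Psmb7 the constitutive gene did. The region at Psmb9 is classed as the promoter of Tap1, so its score cannot be given to Psmb9 alone. These are single values from 1 library with no replicate check. In replicate 2 none of the 6 genes had a region within 1000 bp.

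At Psmb10 both signals lay away from the canonical start site. The TAF4b peak was centred 1426 bp downstream of it, in an intron of the canonical transcript and 6 bp from the start of another annotated Psmb10 transcript. The H3K4me3 region ran from 337 to 1758 bp downstream. The Psmb10 peak is printed for its position away from the canonical start, and the Psmb5 sequence (250 bases before the start site and 50 from it) because it is the promoter of the catalytic subunit without a TAF4b call. Capitals mark a GC box in Psmb10, and in Psmb5 a YY1 core and, at position -18, an antioxidant response element. That element was thus present near the start of both Psmb6, with TAF4b peaks, and Psmb5, without.
Psmb10 TAF4b replicate 1 (GRCm39 chr8:106663580-106663722, minus strand): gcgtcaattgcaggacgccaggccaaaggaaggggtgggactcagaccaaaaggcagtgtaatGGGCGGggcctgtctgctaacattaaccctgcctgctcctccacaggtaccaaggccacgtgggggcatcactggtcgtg
Psmb5 promoter (GRCm39 chr14:54855432-54855731, minus strand): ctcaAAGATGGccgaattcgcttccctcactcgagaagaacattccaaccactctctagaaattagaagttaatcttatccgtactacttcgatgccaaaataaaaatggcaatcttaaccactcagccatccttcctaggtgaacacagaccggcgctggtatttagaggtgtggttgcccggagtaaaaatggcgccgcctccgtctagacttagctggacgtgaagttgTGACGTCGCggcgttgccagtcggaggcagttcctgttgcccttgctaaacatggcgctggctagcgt

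The testis subunit Psma8 and the thymus subunit Psmb11 had no TAF4b peak within 1000 bp in either replicate. Psma8 is the alpha subunit of proteasomes in meiotic and later male germ cells, and Psmb11 is made by cortical epithelial cells of the thymus. Their H3K4me3 replicate 1 scores, 34.3 and 35.8, were the lowest of the 48 genes after that of Psmb6, where the lower quartile was 62.6 and the median 84.25. The Psma8 region (637 bp) began at position -16 and covered the start site. The Psmb11 region (500 bp, the smallest width in that list) lay from 298 to 798 bp downstream, was centred in a coding exon and did not cover the start site. Psma7, the constitutive counterpart of Psma8, scored 52.2, but in a region that missed its start site and lay nearest the promoter of Ss18l1.

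In the regulatory particle, 10 of 17 genes had a TAF4b replicate 1 promoter peak (beside 22.7% of all genes) and 13 had a peak within 1000 bp (beside 29%). Among the 6 ATPases, which unfold substrates, Psmc1, Psmc4 and Psmc6 were called by class. Psmc2 and Psmc5 were added by coordinates, with peaks of 21.3 and 8.93. Psmc3 had none, with an H3K4me3 replicate 1 score of 67.1. Among the 11 other subunits, 7 were called by class, including the scaffold Psmd1, the ubiquitin receptor Psmd4 and the deubiquitinase Psmd14. Psmd14 had the lowest score of any called member, 8.44. The lid subunit Psmd13 was added by coordinates, with peaks of 13.4 and 10.4. The scaffold Psmd2 and the lid subunits Psmd6 and Psmd12 had no TAF4b peak, and their H3K4me3 replicate 1 scores were 86.5, 77.5 and 107.3.

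Assembly factors had a TAF4b replicate 1 promoter peak at 4 of 7, beside 22.7% of all genes. Psmd5 and Psmd10, which help build the base, and Psmg1 and Psmg3, which help build the core, had peaks of 22.8, 21.3, 17.9 and 12.4. Their partners Psmd9, Psmg2 and Psmg4 had none, with H3K4me3 replicate 1 scores of 68.6, 70.1 and 82. The Psmg2 region did not cover the canonical start site and is classed as the promoter of Cep76, on the opposite strand. Its score therefore cannot be given to Psmg2 alone. Each assembly pathway thus held called and uncalled members.

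Activators bind the ends of the core in place of the regulatory particle. Psme1 and Psme2, which form the interferon-induced activator, had no TAF4b peak within 1000 bp in either replicate. The region at Psme2 nevertheless had the highest H3K4me3 replicate 1 score of the family (240, 2315 bp), and Psme1 scored 116.3 (1168 bp). The Psme2 region also spans the opposite-strand start site of Rnf31, 101 bp inside the Psme2 transcript. Its score therefore cannot be given to Psme2 alone. Psme3, which forms the nuclear activator, had a TAF4b peak of 16.9. Psme4, the activator known for histone degradation in male germ cells, had one of 10.4 and an H3K4me3 score of 128.2 over 2315 bp. Psmf1, an inhibitor and regulator of the core, had a TAF4b peak of 11.4. The Psme1 promoter is printed as that of an H3K4me3-marked member without TAF4b, with 1 CCAAT box and 1 GC box in capitals.
Psme1 promoter (GRCm39 chr14:55815501-55815800, plus strand): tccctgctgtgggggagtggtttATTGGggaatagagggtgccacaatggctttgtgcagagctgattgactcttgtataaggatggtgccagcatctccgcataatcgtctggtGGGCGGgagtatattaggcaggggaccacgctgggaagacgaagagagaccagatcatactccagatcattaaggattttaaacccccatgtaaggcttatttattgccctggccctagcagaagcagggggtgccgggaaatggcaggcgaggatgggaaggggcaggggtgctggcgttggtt

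Each of the 27 TAF4b replicate 1 promoter peaks of members overlapped an H3K4me3 replicate 1 region by at least 1 bp (100%, Wilson interval 87.5 to 100%), beside 86.5% of 5244 such peaks at all protein-coding genes. With H3K4me3 replicate 2, 1 of 27 overlapped (3.70%, beside 8.22%). The Psmb6 peak of TAF4b replicate 2 lay in a region of H3K4me3 replicate 1 and in none of replicate 2. Members with a TAF4b replicate 1 peak within 1000 bp had a median H3K4me3 replicate 1 score of 90.9 (n = 32), and members without had 73.8 (n = 16), with both ranges spanning most of the other (22.4 to 208.7 and 34.3 to 240). Over all genes the medians were 96.9 with a TAF4b peak and 87.9 without. The Psma7 regions show how the replicates differ: in replicate 1 the region ran from -1326 to -402 and missed the start site, and in replicate 2 it ran from -517 to 154 and covered it.

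Member peaks sat close to the start. Of the 27, 19 had a negative deposited distance, upstream of the nearest listed promoter (70.4%, beside 81.1% of peaks at all genes), and 25 lay within 100 bp of it (beside 72.4%). That promoter belongs to a neighbour for Psma2 (Mrpl32) and Psmd10 (Atg4a). The median deposited distance was -32 bp, beside -50 bp for all genes, and to the nearest annotated start site of the member itself it was -30 bp. Relative to the canonical transcript, 16 centres were upstream, 9 in the 5′ untranslated part of an exon, 1 in a coding exon (Psmd8) and 1 in an intron (Psmb10). Over libraries the median distance of member intervals was -56 ± 33.9 bp (SD, n = 2) for TAF4b and 35 ± 50.9 bp (SD, n = 2) for H3K4me3. The difference of -91 bp gave a two-sided exact permutation p = 0.333, the smallest that 2 libraries against 2 can give. It was -38 bp when measured to the member's own nearest start site, with the same exact p. The replicate 2 medians rest on 1 TAF4b peak and 3 H3K4me3 regions.

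**Figure D3:**
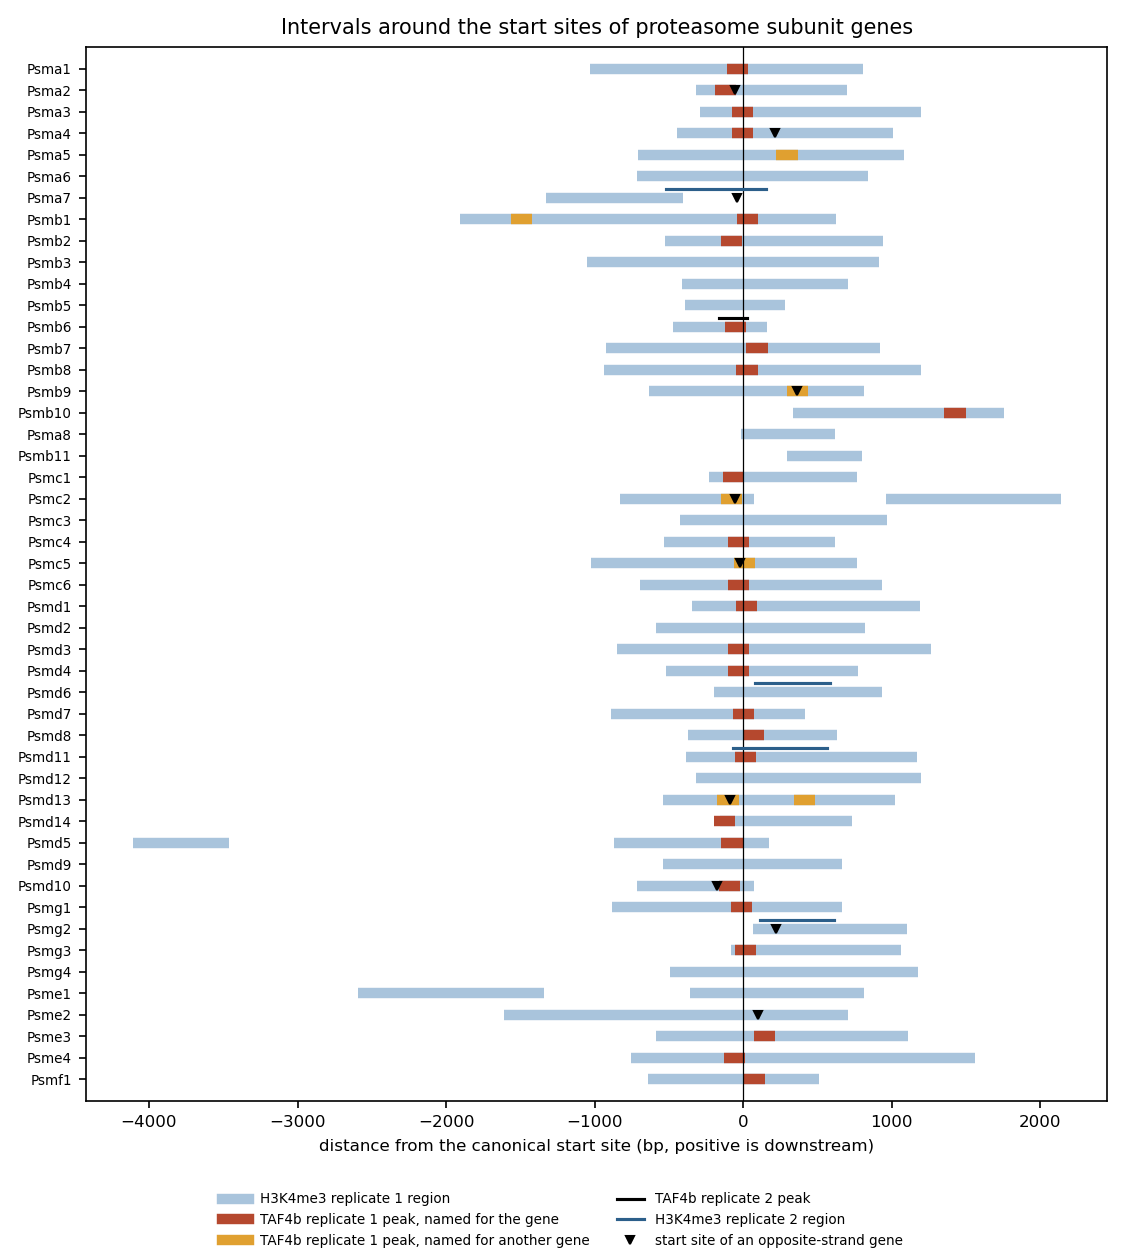
Intervals around the canonical start site of each of the 48 genes, as distance in bp with positive values downstream. Pale bars are H3K4me3 replicate 1 regions, red and orange bars are TAF4b replicate 1 peaks named for the gene or for another gene, thin lines above a row are replicate 2 intervals, and triangles are start sites of opposite-strand protein-coding genes. Red bars cluster at the start site and overlap pale bars, with that of Psmd14 extending past the upstream end of its region. Psmb10 is displaced downstream, and Psmb6 has the one thin black line.

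The 5 calls gained by coordinates were at members with an opposite-strand neighbour, the non-coding 1700010K24Rik at Psma5 and a protein-coding gene at the other 4. Measured between canonical start sites, 10 of 48 members (20.8%) had another protein-coding gene starting on the opposite strand within 1000 bp, beside 8.85% of all genes. Of these 10, 3 had a TAF4b replicate 1 peak by class (Psma2 beside Mrpl32, Psma4 beside AY074887 and Psmd10 beside Atg4a) and 7 within 1000 bp. Those shares, 30% and 70%, are near the 33.1% and 65% of all genes with such a neighbour. The promoter class at the 4 gained members was named for the neighbour: Tap1 at Psmb9, Dnajc2 at Psmc2, Ftsj3 at Psmc5 and Sirt3 at both peaks of Psmd13. The nearest-promoter column named the member itself at Psmb9, at Psmc5 and at the weaker peak of Psmd13. The start sites were -52 bp apart for Psmc2, -22 bp for Psmc5 and -86 bp for Psmd13, where negative values mean that the neighbour starts upstream. Peaks of 143 bases cannot be assigned to 1 of such a pair. The remaining 3, Psma7 beside Ss18l1, Psmg2 beside Cep76 and Psme2 beside Rnf31, had no TAF4b peak within 1000 bp.

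Promoter sequence was searched on both strands for 7 strings, from 250 bases before to 50 after the canonical start site. No string contains another. The ETS core CCGGAAG was found in 15 of 48 members (31.2%) and in 10.3% of all promoters of this length, and the GC box GGGCGG in 30 (62.5%) and 42.5%. The YY1 core AAGATGG was found in 6 (12.5% beside 5.74%), the nuclear respiratory factor core GCGCATGC in 4 (8.33% beside 3.69%), and the antioxidant response element TGACNNNGC in 8 (16.7% beside 12.4%). CCAAT was found in 18 (37.5% beside 39.9%) and TATAAA in 5 (10.4% beside 13.2%). The antioxidant response element is the site through which the factor Nfe2l1 is known to raise proteasome gene transcription when the proteasome is inhibited. A match is a string in the reference and not a binding site.

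For the GC box, the ETS core and the antioxidant response element, members with and without a TAF4b replicate 1 peak within 1000 bp stood in the opposite order to all genes. For CCAAT, the nuclear respiratory factor core and TATAAA they stood in the same order, and the YY1 core was in 12.5% of both. The YY1 equality held only in this window. With 100 bases on each side of the start site, AAGATGG was in 28.1% of members with a peak and 6.25% without. The shares of all genes were then 6.11% and 3.99%. GGGCGG was in 56.2% of the 32 members with a peak and 75% of the 16 without, while over all genes it was in 63.8% with and 33.8% without. CCGGAAG was in 28.1% and 37.5% of members, and in 18.3% and 6.99% of all genes. TGACNNNGC was in 12.5% and 25% of members, and in 13.8% and 11.9% of all genes. CCAAT was in 40.6% and 31.2% of members, and in 44.4% and 38.1% of all genes. GCGCATGC was in 9.38% and 6.25% of members, and in 6.45% and 2.56% of all genes. TATAAA was in 6.25% and 18.8% of members, and in 7.54% and 15.5% of all genes. With 16 members without a peak these shares rest on few genes, and no test was made. Inside the 27 peaks themselves CCGGAAG was in 8 (29.6%, beside 13.9% of promoter peaks at all genes), AAGATGG in 3 (11.1% beside 2.86%), GGGCGG in 15 (55.6% beside 57.6%) and CCAAT in 7 (25.9% beside 37.6%). TGACNNNGC was in 1, at Psmb6 (3.70% beside 8.91%), and TATAAA in 0 (beside 1.70%).

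**Figure D4:**
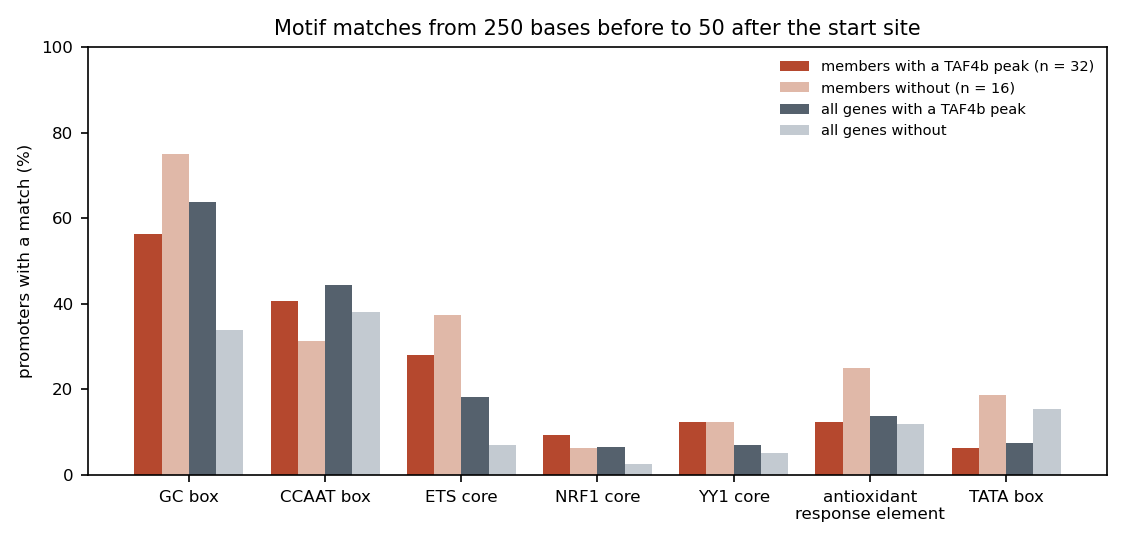
Share of promoters (percent, 250 bases before to 50 after the canonical start site) holding each of 7 strings, for members with (n = 32) and without (n = 16) a TAF4b replicate 1 peak within 1000 bp and for all protein-coding genes with and without. The GC box is more frequent in members without a peak (75%) than with one (56.2%), the opposite order to all genes (33.8% and 63.8%).

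Other genes of the ubiquitin-proteasome pathway were taken from a list of 31 that do not carry a Psm symbol, of which 30 were matched in the annotation. TAF4b replicate 1 had a promoter peak at 20 of the 30, beside 22.7% of all genes. All 6 matched genes for further subunits and assembly were called, among them the ubiquitin receptor Adrm1 (13.9), the small lid subunit Sem1 (16.4) and the core maturation factor Pomp (8.44). Of 6 genes for ubiquitin and its activation 5 were called, with the polyubiquitin gene Ubb at 41.7 and the activating enzyme Uba6 at 35.2. Of 7 genes for regulators of proteasome genes 4 were called by class, namely Nfe2l1 (peaks of 30.8 and 21.3) and the CCAAT-binding subunits Nfya (35.7), Nfyb (10.9) and Nfyc (22.8). The class also named 4 of 8 genes for the segregase and shuttle factors and 1 of 3 for proteasome-bound deubiquitinases and a ligase. Ubb, Uba6 and Nfya were also called in TAF4b replicate 2, at 72.9, 72.9 and 97.2, beside 3.14% of all genes. Within 1000 bp TAF4b replicate 1 called 22 of the 30 (beside 29%) and replicate 2 called 4 (beside 4.17%). The regulator Nfe2l2 was called by that rule in both replicates. Only Adrm1 was called in H3K4me3 replicate 2, beside 4.14% of all genes. H3K4me3 replicate 1 called 20 of the 30 by class, beside 44%, and 28 within 1000 bp, beside 72%.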

How the data were processed

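CUT&RUN was performed with antibodies to TAF4b and H3K4me3, with 2 replicates each. The submitters' processing notes name Trim Galore 0.5.0, Bowtie2 2.3.0, SAMtools 1.9, HOMER 4.10 and the build GRCm39, and the H3K4me3 file headers name the Ensembl 103 gene set. The peak caller's settings and threshold are not given in the sources used here. The deposited lists hold 1 library each with the authors' peak score, used within a list, and, for TAF4b, a focus ratio, a fraction given by the authors. Genes were named through transcript identifiers, of which 98.6 to 99.2% matched GENCODE M39. A gene was called when the deposited class was promoter and its transcript was named there, or, as an alternative, when an interval had a base within 1000 bp of an annotated start site. Sequence was read from GRCm39 with pysam 0.24.0. The calls were tested on simulated intervals. The members, the pathway and marker lists and the alternatives were chosen with earlier results of these data known.

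Members named in the text were those with a TAF4b peak in replicate 2, those without one in replicate 1, the tissue-restricted subunits, Psme1, Psme2 and Psme4, the 5 with the highest scores among TAF4b replicate 1 promoter-class peaks, and those sharing a promoter whose call changed by coordinates. Other members and pathway genes named with values were chosen after these were seen. Wilson intervals are at 95%. The H3K4me3 count over the blood marker list is not reported here.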

Additional observations from a re-analysis of the deposited data

How the results depend on the processing

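Of 48 alternative settings computed, 34 left a value within the limits set for it, 14 moved it and 0 reversed it. The 27 members with a TAF4b replicate 1 promoter peak became 18 to 32 under 5 of 6 other call rules, and 4 when the list was cut to the length of replicate 2. Without replicate 1 or replicate 2, members called in either replicate numbered 1 to 27. In the higher-scoring 50% of each list, TAF4b replicate 2 called 0 members and H3K4me3 replicate 2 called 1. H3K4me3 replicate 1 called 48 within 1000 bp, of any start site or of the canonical one, and 3 when cut to the length of replicate 2. Ranked among all intervals in place of promoter intervals, the median member percentile went from 51.4 to 61.6 in TAF4b replicate 1, from 45.7 to 46.3 in TAF4b replicate 2 and from 53.2 to 80.1 in H3K4me3 replicate 1. By the limits set, the TAF4b replicate 1 change counted as within them, and those of TAF4b replicate 2 and H3K4me3 replicate 1 as moved. Against the H3K4me3 list of the other replicate, 3.70% of TAF4b replicate 1 peaks and 100% of the 1 replicate 2 peak overlapped. With 100 bases on each side of the start site, the nuclear respiratory factor core was in 2 members (4 before), the YY1 core in 10 (6) and the TATA box in 1 (5). The position difference with a replicate block was -91 bp, the same as without (sign-flip exact permutation p = 0.5, the smallest 2 pairs allow), and -151 to -31 bp with 1 replicate left out. To the member's own nearest start site it was -38 bp. The either-column and canonical rules and the background within 1000 bp were added after seeing the data.

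The counts rest on single lists that differ in length, with unknown depth and threshold and no IgG comparison. A missing peak in a replicate 2 list is not evidence of absence.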

Other observations

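Some TAF4b replicate 1 peaks near members were not classed as their promoter. An intergenic peak with a score of 14.9 lay at -4783 bp from Psmd1, whose promoter peak scored 17.4. The Psma6 promoter had no peak, and the nearest one assigned to it was intergenic, 13036 bp from its nearest start site, with a score of 9.93. The gene Tbp, which encodes the TATA-binding subunit of TFIID, starts beside Psmb1, and its own TAF4b replicate 1 peak (19.9) was centred at -1493 bp from the canonical Psmb1 start site and at -81 bp from the nearest annotated one. The peak named for Psmb1 scored 16.9.

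The focus ratio that the authors give for each TAF4b peak, a fraction for how concentrated the signal is, had a median of 0.645 over the 27 member peaks (0.596 to 0.733) and of 0.639 over all promoter peaks of protein-coding genes. The median GC content of the 48 promoters (250 bases before to 50 after the start site) was 55.5%, beside 54.3% over all protein-coding genes. Member promoters held more CG dinucleotides (C followed by G). With 100 bases on each side the median was 16, beside 10 for all genes. In the longer window the median was 19.5 in members with a TAF4b replicate 1 peak within 1000 bp and 14.5 without. Over all genes it was 20 with such a peak and 7 without. The part of this in the share of members called was not tested.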
